A study of Mus musculus with 29 samples.

Results

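Pdcd1, Ctla4, Lag3, Tigit, Havcr2 and Btla, which encode 6 inhibitory checkpoint receptors, were followed through 29 bulk RNA-seq libraries of mice with peritoneal dissemination of gastric cancer. They were chosen by gene symbol, with earlier results of these data known. They make up 6 of the 24421 genes in the deposited count table, each measured in all 29 libraries. Inhibitory checkpoint receptors sit mainly on activated T cells. When a ligand on a tumor cell or an antigen-presenting cell binds them, they dampen the signal from the T cell receptor, and T cells that carry several of them for a long time in a tumor are described as exhausted. Several are not confined to T cells, since Havcr2 is also made by macrophages and dendritic cells and Btla by B cells. To relate each receptor to the T cells in the tissue, its reads were also set against those of Cd3e, a subunit of the CD3 complex that all mature T cells carry.

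All mice were female C57BL/6J, 5 to 6 weeks old, and all, including the untreated mice, received cells of YTN16, a mouse gastric cancer line, on day 0. Untreated mice received PBS, and treated mice received intraperitoneal anti-PD1 (10 mg/kg), anti-CTLA4 (5 mg/kg) or both, which is called dual ICI. Tissue was taken on day 21 from untreated mice (n = 5) and dual ICI mice (n = 5), injected on days 5, 8 and 12. Tissue was taken on day 35 from untreated (n = 5), anti-PD1 (n = 5), anti-CTLA4 (n = 4) and dual ICI mice (n = 5), which had the same 3 injections and further ones on days 21 and 28. GEO's labels list the dual ICI mice of day 35 as 1 group and call every sample tumor tissue, whereas the study's methods describe stripped peritoneum with or without nodules. The division of that group into uncured (replicates 1 and 5, n = 2) and cured mice (replicates 2, 3 and 4, n = 3) was taken from the mouse numbers that the study names. The libraries of the 2 days carry separate runs of library numbers in the labels, so time and run cannot be told apart.

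Each library held between 25989217 and 31219650 gene counts, and levels are given in CPM, counts scaled to the effective library size after TMM (trimmed mean of M values) normalization. Libraries also differed in tissue content. A list of 12 skeletal muscle genes took 18.4% or more of the counts in each cured library, 17.9% in untreated day 35 replicate 2 and 18.0% in anti-PD1 replicate 5, against 5.07% to 9.97% in the other anti-PD1 libraries. The 16 gastric epithelium genes, which the YTN16 tumor expresses, summed to 18.8 to 96.3 CPM in cured libraries and 61.4 CPM in anti-PD1 replicate 5, against 1169 to 3948 CPM in untreated mice at day 35. Log2 fold changes in comparisons that use anti-PD1 replicate 5 or untreated day 35 replicate 2 are therefore also given without it. The study also describes a cured mouse in the anti-PD1 group without saying which library it gave, so it was not set apart here, and the values of that group include it. Tissue content varied at day 21 as well. Muscle genes took 6.68% to 13.6% of the counts in untreated and 5.88% to 16.7% in dual ICI libraries of that day. Gastric epithelium genes summed to 870.5 to 2569 CPM and 958.5 to 2872 CPM. The part of this variation in the day 21 receptor differences was not tested.

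The receptor genes lie apart from each other, except that Pdcd1 and Ctla4 share a chromosome and so do Tigit and Btla. In the GENCODE annotation of GRCm38, Pdcd1 lies at chr1:94038305-94052553 on the minus strand and Ctla4 at chr1:60887000-60915832 on the plus strand. Lag3 lies at chr6:124904361-124911705 on the minus strand, Havcr2 at chr11:46454935-46481255 on the plus strand, Tigit at chr16:43648867-43664146 on the minus strand and Btla at chr16:45224315-45257670 on the plus strand. No other annotated gene overlaps the exons of any of the 6, which count 1930 bases for Pdcd1, 2330 for Ctla4, 2109 for Lag3, 919 for Tigit, 2721 for Havcr2 and 3396 for Btla. Of the 4080 exon bases of Cd3e (chr9:44998740-45009627, minus strand), 135 overlap Gm48719 on the opposite strand, and whether reads were counted by strand is not given in the sources used here.

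Promoters were matched for 5 of the 6 receptors in RefSeq (GRCm38.p6). The 250 bases upstream of the annotated start are shown for Pdcd1, Havcr2 and Tigit, the receptors with the largest falls in the cured mice, with capitals marking 2 motifs on either strand: GGAAA, the core bound by NFAT, and TGANTCA, bound by AP-1. Both factors are activated downstream of the T cell receptor. The lines give Pdcd1 (chr1:94052554-94052803, minus strand), Tigit (chr16:43664185-43664434, minus strand) and Havcr2 (chr11:46454681-46454930, plus strand).
Pdcd1: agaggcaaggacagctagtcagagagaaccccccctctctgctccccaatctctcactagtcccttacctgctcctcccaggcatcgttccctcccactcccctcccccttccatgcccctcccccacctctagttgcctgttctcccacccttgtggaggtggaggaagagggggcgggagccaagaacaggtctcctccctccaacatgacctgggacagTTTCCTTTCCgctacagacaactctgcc
Tigit: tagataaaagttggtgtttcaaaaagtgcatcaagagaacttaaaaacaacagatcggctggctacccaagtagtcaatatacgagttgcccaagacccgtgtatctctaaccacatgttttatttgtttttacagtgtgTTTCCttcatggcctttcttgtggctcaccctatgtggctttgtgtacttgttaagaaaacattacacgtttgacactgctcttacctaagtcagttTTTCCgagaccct
Havcr2: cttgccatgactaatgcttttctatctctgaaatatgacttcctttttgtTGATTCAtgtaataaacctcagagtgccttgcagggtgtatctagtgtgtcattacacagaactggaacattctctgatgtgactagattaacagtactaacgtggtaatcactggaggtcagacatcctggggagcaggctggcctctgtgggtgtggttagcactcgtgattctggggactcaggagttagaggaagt
The Pdcd1 and Tigit windows each held 2 matches of GGAAA, which overlap neither each other nor TGANTCA, and a window with at least 2 was found for 21.4% of 32851 mouse promoters. The Ctla4 window held 1 match and the Btla and Havcr2 windows 0, against 55.6% of promoters with at least 1. Havcr2 alone held TGANTCA, found in 6.75% of promoters, and the letters TATAAA, found in 12.4%, were in none of the 5 windows.

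Per kilobase of exon, Lag3, a receptor for MHC class II and Fgl1, had the highest mean level of the 6 in untreated mice at both times, with 2.26 CPM per kb at day 21 and 2.77 at day 35. Tigit, which binds Pvr and Nectin2, followed at day 21 (1.20 CPM per kb), ahead of Havcr2 (1.08), the receptor TIM3, Pdcd1 (0.884), Btla (0.805), a receptor for Tnfrsf14, and Ctla4 (0.483), which competes with Cd28 for Cd80 and Cd86. Cd3e stood at 0.680 CPM per kb at day 21 and 0.541 at day 35. In uncured dual ICI mice the order changed, since Pdcd1, the receptor PD1, was highest per kilobase at 3.72, ahead of Lag3 at 3.20 and Tigit at 2.91. In cured mice the mean levels per kilobase were 1.36 for Lag3, 0.343 for Btla, 0.289 for Tigit, 0.164 for Havcr2, 0.149 for Ctla4 and 0.129 for Pdcd1, so that Pdcd1 stood last. These are orders of mean levels per kilobase between genes, with no test. They depend on the GENCODE exon lengths, and the annotation that the counts were made with is not given. By CPM alone, Tigit (1.10 CPM, 919 exon bases) had the lowest mean of the 6 in untreated mice at day 21, just below Ctla4 (1.13 CPM).

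**Figure D1:**
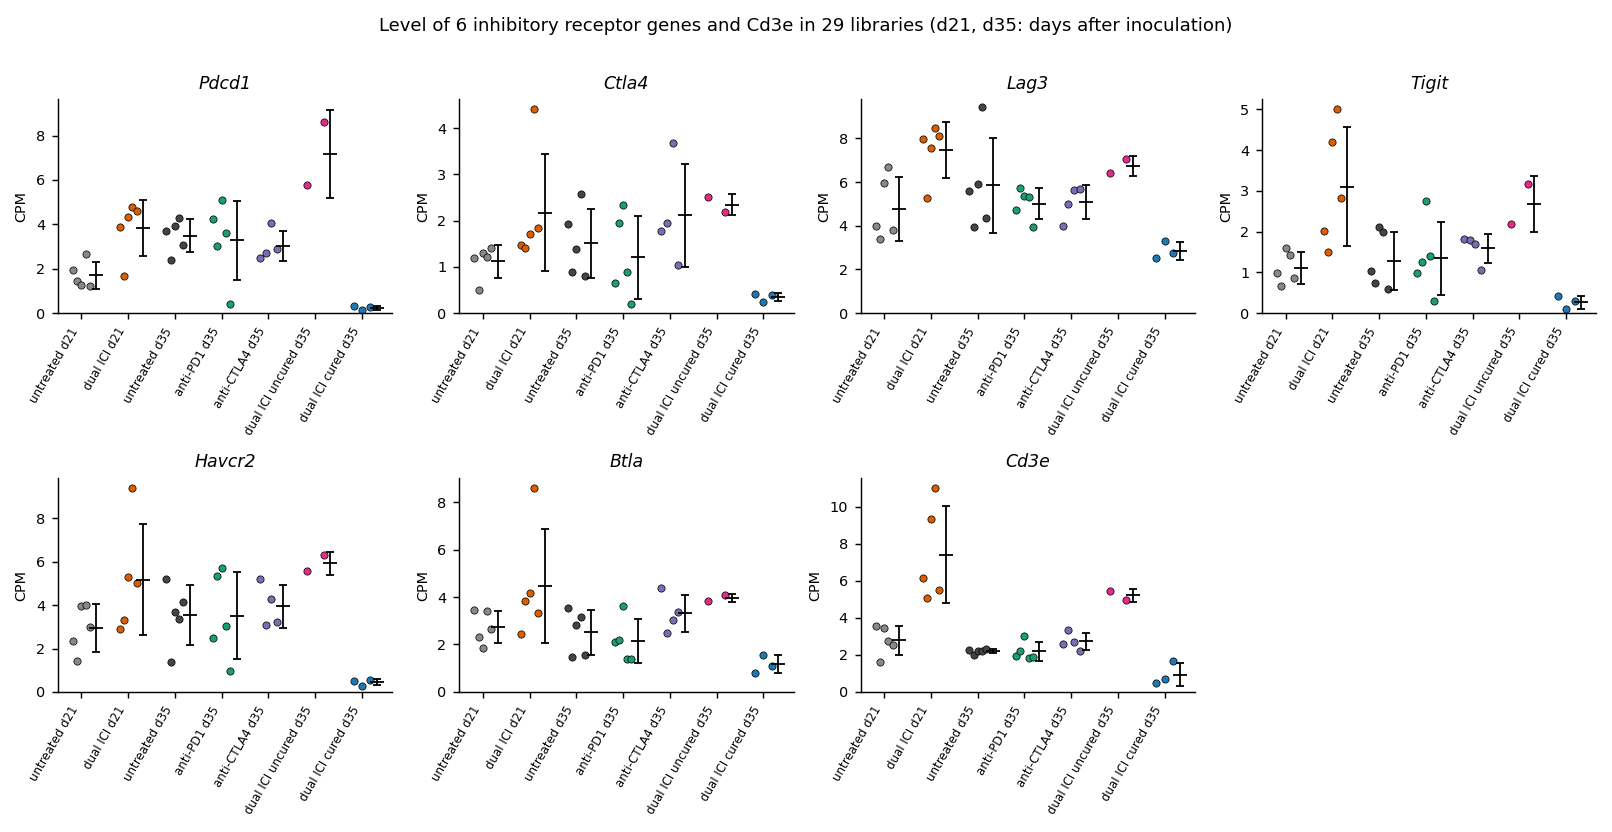
Level in CPM (vertical axis, linear from 0) of the 6 receptor genes and Cd3e in each of 29 libraries (points), by group (horizontal axis), with the group mean and SD beside the points. Cured dual ICI libraries (n = 3) had the lowest group mean for every receptor, and the 2 uncured libraries lay above all other groups for Pdcd1, at 5.78 and 8.59 CPM.

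The first comparison asked whether the receptors were higher after 3 injections of dual ICI, at day 21. All 6 were higher in dual ICI than in untreated mice by their fitted means, by 0.66 (Lag3) to 1.51 (Tigit) on the log2 scale, but none passed the threshold of an adjusted p under 0.05 in edgeR. The median log2 fold change of the 6 was 0.90, against 0.02 over the 15503 genes tested. In whole tissue, fewer cells of a type and less RNA per cell cannot be told apart, here or in any result that follows.

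Tigit was 0.981, 0.658, 1.6, 1.43 and 0.854 CPM in untreated and 2.02, 1.49, 4.20, 5.00 and 2.83 CPM in dual ICI mice. The groups overlapped through 1 dual ICI library, replicate 2, which lay below the highest untreated library, and dual ICI replicates 3 and 4 were the highest. Its log2 fold change was 1.51 (SE 0.37, edgeR, adjusted p = 0.114). Pdcd1 was 1.93, 1.43, 1.27, 2.67 and 1.23 CPM in untreated and 3.87, 1.68, 4.33, 4.79 and 4.58 CPM in dual ICI mice. Dual ICI replicate 2 again lay inside the untreated range, and the other 4 dual ICI libraries lay above it. For Pdcd1 the log2 fold change was 1.18 (SE 0.32, edgeR, adjusted p = 0.151), and without dual ICI replicate 2 it was 1.37 with an adjusted p of 0.0431 in edgeR. DESeq2 in place of edgeR called Pdcd1 (adjusted p = 0.0149) and Tigit (adjusted p = 0.00554) and no other receptor, out of 507 genes against 89 in edgeR.

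Ctla4 was the only receptor whose groups did not overlap at day 21. It was 1.19, 0.503, 1.31, 1.21 and 1.41 CPM in untreated and 1.48, 1.42, 1.72, 4.41 and 1.85 CPM in dual ICI mice, so that the lowest dual ICI library lay just above the highest untreated one and dual ICI replicate 4 stood far above the rest. Among the 15503 genes tested, 1.83% separated the groups in this direction. Its log2 fold change was 0.97 (SE 0.38, edgeR, adjusted p = 0.370). Lag3 was 3.99, 3.41, 5.96, 6.68 and 3.82 CPM in untreated and 7.98, 5.26, 7.58, 8.48 and 8.09 CPM in dual ICI mice, with dual ICI replicate 2 the only one within the untreated range, and had a log2 fold change of 0.66 (SE 0.22, edgeR, adjusted p = 0.272). Havcr2 ranged over 1.43 to 4.01 CPM in untreated and 2.88 to 9.38 CPM in dual ICI mice, and Btla over 1.85 to 3.43 and 2.43 to 8.61 CPM, both with overlapping groups and with dual ICI replicate 4 highest. Their log2 fold changes were 0.83 (SE 0.36, edgeR, adjusted p = 0.436) and 0.73 (SE 0.33, edgeR, adjusted p = 0.467). At an unadjusted edgeR p under 0.05, 5 of the 6 were higher, all except Btla, against 6.02% of all genes tested. After adjustment 0 of 6 were called, against 0.471% of all genes called higher. Without dual ICI replicate 4 the log2 fold changes were 0.51 for Ctla4, 0.48 for Havcr2 and 0.32 for Btla.

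T cell genes were also higher in dual ICI mice at day 21. Cd3e was 3.54, 1.63, 3.46, 2.73 and 2.52 CPM in untreated and 6.17, 5.07, 9.33, 11.0 and 5.51 CPM in dual ICI mice, with no overlap, a larger log2 difference (1.43, SE 0.28, edgeR, adjusted p = 0.0530) than that of any receptor except Tigit. All 10 T cell marker genes in the table were higher, 3 of them called (Cd3g by 1.82, Cd247 by 1.23 and Zap70 by 1.23), and their summed level was 17.5 to 32.2 CPM in untreated and 47.1 to 70.6 CPM in dual ICI mice. The subunits of CD8 rose further, Cd8a by 2.31 (edgeR, adjusted p = 0.0193) and Cd8b1 by 2.53 (edgeR, adjusted p = 0.0222). Foxp3, the regulator of regulatory T cells, differed by 0.19 and Ptprc, carried by all leukocytes, by 0.65, neither called. The B cell list (0 of 4 genes called), which bears on Btla, summed to 2.29 to 5.27 CPM in untreated and 3.84 to 6.77 CPM in dual ICI mice, and the macrophage list (0 of 6 genes called), which bears on Havcr2, summed to 701 to 808 CPM in untreated and 823 to 1481 CPM in dual ICI mice. The dendritic cell list, which also bears on Havcr2, had 0 of 6 genes called and summed to 31.2 to 38.5 CPM in untreated and 41.0 to 82.4 CPM in dual ICI mice, highest in replicate 4. The part of these cells in the receptor differences was not tested other than by the ratios to Cd3e.

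**Figure D2:**
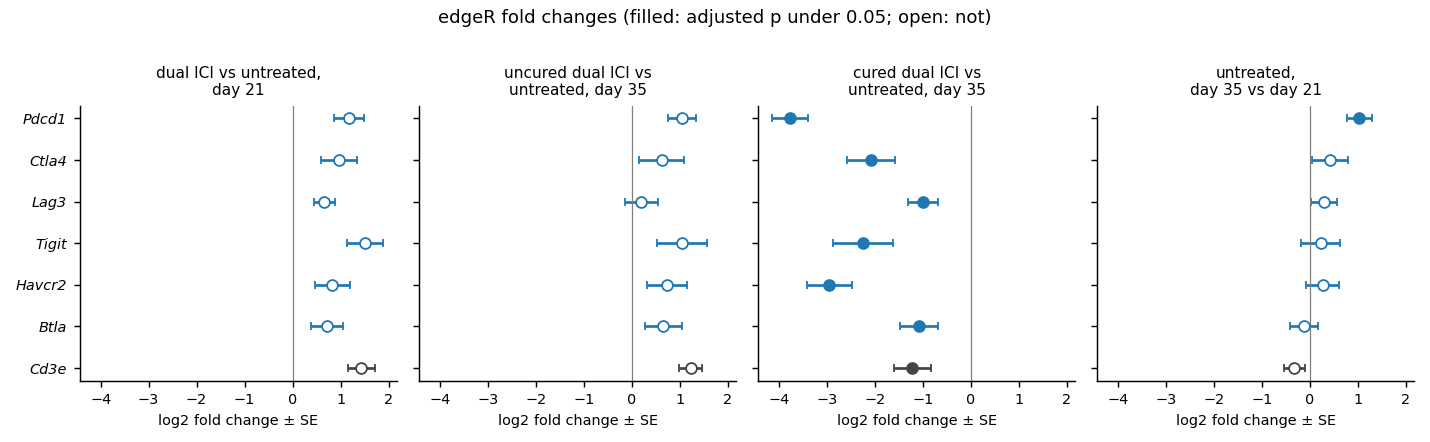
Log2 fold change with its standard error from edgeR (horizontal axis) for the 6 receptor genes and Cd3e (vertical axis) in 4 comparisons (panels); filled points have an adjusted p under 0.05. All 6 receptors lay right of 0 at day 21 and in uncured mice without a call, and all 6 lay left of 0 and were called in cured mice, from -1.0 for Lag3 to -3.77 for Pdcd1.

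Set against Cd3e, no receptor passed as higher in dual ICI mice at day 21. Tigit was 0.277, 0.405, 0.463, 0.523 and 0.338 reads per Cd3e read in untreated and 0.327, 0.294, 0.450, 0.455 and 0.514 in dual ICI mice, with overlapping groups, and the log2 difference in the ratio was -0.01 (exact two-sided permutation p = 0.976). Pdcd1 was 0.545, 0.881, 0.368, 0.977 and 0.485 reads per Cd3e read in untreated and 0.627, 0.331, 0.465, 0.435 and 0.832 in dual ICI mice, overlapping throughout, with a log2 difference in the ratio of -0.26 (exact permutation p = 0.460). Lag3 was lower relative to Cd3e, at 1.29, 1.04, 0.812, 0.771 and 1.47 reads per Cd3e read in dual ICI mice against 1.13, 2.10, 1.73, 2.44 and 1.51 in untreated mice. Its groups overlapped, and the log2 difference in the ratio was -0.71 (exact permutation p = 0.0317). Btla was lower as well, at 0.393, 0.757, 0.447, 0.783 and 0.601 against 0.970, 1.43, 0.537, 1.25 and 1.04 (-0.78, exact permutation p = 0.0476), also with overlap. Ctla4 (-0.53, exact permutation p = 0.0635) and Havcr2 (-0.61, exact permutation p = 0.0556) did not pass. The smallest p that 5 mice against 5 allow is 0.00794, and 5 of the 54 such tests, 6 receptors in 9 comparisons, had an exact p under 0.05 without adjustment. Those of the 54 that set 2 mice against 5 could not pass, since the smallest p they allow is 0.0952.

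Cd3e itself was higher, and most genes were lower relative to it. In all, 71.5% of all genes tested were lower per Cd3e read in every dual ICI library than in every untreated library, and 0 of the 6 receptors were. In edgeR with the Cd3e level as an offset, 94.2% of genes were called lower and 0 of the receptors, with Btla (adjusted p = 0.0537) and Lag3 (adjusted p = 0.0583) nearest. By exact permutation relative to Cd3e, 2 of the 6 receptors and 91.1% of all genes passed as lower. These ratios moved with the choice of reference. Per read of Cd8a all 6 were lower by 0.90 (Tigit) to 1.67 (Btla) on the log2 scale, each with an exact permutation p of 0.0317 or less, as 99.2% of all genes passed in that direction. Per read of Ptprc, Tigit was higher by 0.77 (exact permutation p = 0.0476), and the other 5 differed by -0.00 to 0.51, while 0.6% of all genes passed as higher.

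**Figure D3:**
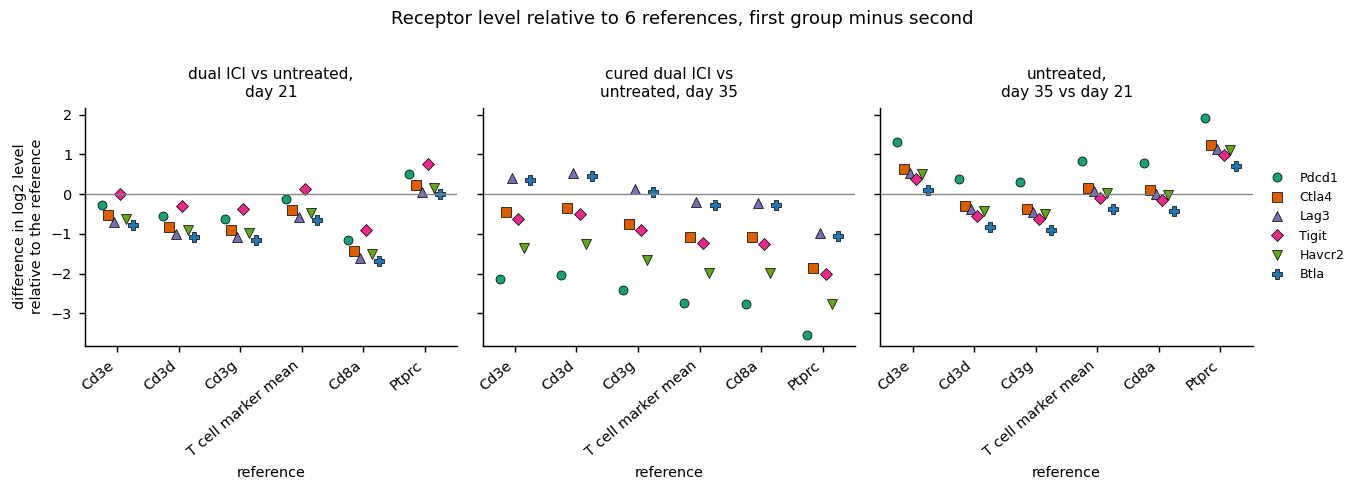
Log2 difference in the level of each receptor relative to a reference gene (vertical axis) for the 6 references on the horizontal axis, in 3 comparisons (panels), with 1 marker per receptor. At day 21 the 6 receptors lay between -1.67 and -0.90 relative to Cd8a and between -0.00 and 0.77 relative to Ptprc. In cured mice Pdcd1 was the lowest of the 6, an order within a panel that the choice of reference cannot change.

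The next comparison set the 2 dual ICI mice that were not cured at day 35 against the 5 untreated mice of that day. All 6 receptors had higher fitted means in the uncured mice, by 0.20 (Lag3) to 1.05 (Tigit) on the log2 scale, with a median of 0.70 against -0.01 over 16156 genes tested. No receptor and no gene passed adjustment in edgeR (0.0% called), whereas DESeq2 called 18 genes and none of the receptors. At an unadjusted p under 0.05, edgeR counted 787 genes (4.87%).

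Pdcd1 was 3.69, 2.40, 3.93, 4.30 and 3.08 CPM in untreated and 5.78 and 8.59 CPM in uncured mice. Both uncured libraries lay above every other library of the study. The log2 fold change was 1.04 (SE 0.29, unadjusted p = 0.00596, edgeR adjusted p = 0.735), and 2.74% of all genes were higher at an unadjusted p under 0.05, where Pdcd1 was the only receptor. It was 0.71 without uncured replicate 5, 1.31 without uncured replicate 1 and 0.94 without untreated replicate 2. Across the 6 receptors, log2 fold changes without untreated replicate 2 were 0.0978 (Lag3) to 0.94 (Pdcd1), with none called. Tigit was 1.03, 0.732, 2.11, 1.99 and 0.587 CPM in untreated and 2.18 and 3.16 CPM in uncured mice, with the lower uncured library just above the highest untreated one (log2 fold change 1.05, SE 0.51, edgeR, adjusted p = 0.735).

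Havcr2 was 5.18, 1.38, 3.66, 3.34 and 4.14 CPM in untreated and 5.55 and 6.30 CPM in uncured mice, and Btla 3.55, 1.46, 2.81, 3.14 and 1.56 CPM and 3.85 and 4.09 CPM. In both, the uncured libraries lay above the untreated ones by a margin smaller than the untreated range. Ctla4, at 2.5 and 2.18 CPM in uncured mice, stayed within the untreated range of 0.793 to 2.58 CPM, as did Lag3, at 6.42 and 7.06 CPM against 3.94 to 9.43 CPM. Lag3 had the smallest log2 fold change, 0.20 (SE 0.34, edgeR, adjusted p = 0.849). In total, 4 of the 6 receptors separated the groups upward (Pdcd1, Tigit, Havcr2 and Btla), as 9.22% of all genes did.

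Cd3e was 2.26, 1.99, 2.23, 2.23 and 2.32 CPM in untreated and 5.46 and 4.96 CPM in uncured mice, more than any receptor moved (log2 fold change 1.23, SE 0.23, edgeR, adjusted p = 0.735). Cd8a (1.43), Cd4 (1.31), Foxp3 (0.94) and Ptprc (0.87) were also higher in both uncured libraries than in all untreated libraries, and the 10 T cell genes summed to 50.3 to 50.8 CPM in uncured against 21.2 to 34.7 CPM in untreated mice. The 6 dendritic cell genes summed to 54.0 and 59.8 CPM in uncured against 22.5 to 48.0 CPM in untreated mice, with 0 called. Skeletal muscle genes took 4.76% to 6.73% of the counts of uncured libraries and 5.06% to 17.9% of those of untreated ones. Per Cd3e read, Pdcd1 was 1.06 and 1.73 in uncured mice, with 1 mouse below and 1 inside the untreated values of 1.63, 1.20, 1.76, 1.93 and 1.33 (log2 difference in the ratio -0.18, exact permutation p = 0.476). Lag3 was lower per Cd3e read in both uncured mice, at 1.18 and 1.42, than in all untreated mice, at 2.47, 1.98, 2.65, 4.23 and 1.89. The log2 difference was -0.94 with the smallest exact p that 2 against 5 allow, 0.0952, and 79.8% of all genes separated in this direction. With the Cd3e offset in edgeR, Lag3 was the only receptor called (-1.0, adjusted p = 0.0278), along with 79.7% of genes.

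In the cured mice, whose tissue held little tumor RNA, all 6 receptors were lower than in untreated mice at day 35 and all 6 passed adjustment in edgeR, against 26.7% of the 15816 genes tested that were called lower. Their log2 fold changes ranged from -1.0 (Lag3) to -3.77 (Pdcd1), with a median of -2.16 against -0.05 over all genes. Genes of other cells differed in the same libraries. All 13 gastric epithelium genes tested and all 4 neutrophil genes were called lower, as were 6 of 10 T cell genes, Cd4 (-1.26) and Foxp3 (-2.87), while 0 of 6 macrophage genes were called, 2 of 6 dendritic cell genes were called lower (Itgax by 1.83 and Flt3 by 1.34) and 1 higher (Siglech, 1.20), and Ptprc had a log2 fold change of -0.00 (SE 0.26, edgeR, adjusted p = 0.994). The part of these tissue differences in the receptor falls was not tested other than by ratios to leukocyte genes.

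Pdcd1 was 0.307, 0.146 and 0.291 CPM in cured mice, from 6, 3 and 6 reads, and 3.69, 2.40, 3.93, 4.30 and 3.08 CPM in untreated mice. Without untreated replicate 2, the untreated library with the most muscle RNA, all 6 receptors were called, with log2 fold changes of -3.86 (Pdcd1) to -1.10 (Lag3). In edgeR its log2 fold change was -3.77 (SE 0.37, edgeR, adjusted p = 0.00015) and stayed between -3.93 and -3.51 with any 1 library left out. Havcr2 was 0.512, 0.292 and 0.533 CPM in cured mice, from 10, 6 and 11 reads, and 5.18, 1.38, 3.66, 3.34 and 4.14 CPM in untreated mice, again without overlap (log2 fold change -2.96, SE 0.47, edgeR, adjusted p = 0.00118). Tigit was 0.409, 0.0974 and 0.291 CPM in cured and 1.03, 0.732, 2.11, 1.99 and 0.587 CPM in untreated mice, and with 8, 2 and 6 reads in the cured libraries its value is set by very few reads. Its log2 fold change was -2.24 (SE 0.63, edgeR, adjusted p = 0.0173).

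Ctla4 was 0.409, 0.244 and 0.387 CPM in cured and 1.92, 0.894, 1.38, 2.58 and 0.793 CPM in untreated mice, apart by a log2 fold change of -2.09 (SE 0.50, edgeR, adjusted p = 0.00913). Lag3 was 2.51, 3.31 and 2.76 CPM and 5.58, 3.94, 5.89, 9.43 and 4.38 CPM, also apart, with a log2 fold change of -1.0 (SE 0.31, edgeR, adjusted p = 0.0261). Btla, at 0.819, 1.56 and 1.11 CPM against 3.55, 1.46, 2.81, 3.14 and 1.56 CPM, overlapped through cured replicate 3 and untreated replicates 2 and 5, and its log2 fold change of -1.07 (SE 0.39) had an adjusted p of 0.0495 in edgeR. Thus 5 of the 6 receptors lay below the untreated mice in every cured library, against 26.9% of all genes. With any 1 untreated library left out, 5 or 6 receptors were called. Leaving out single cured libraries reduced the receptors called to 4 without replicate 2, and to 3 without replicate 3 or 4. Pdcd1, Havcr2 and Ctla4 were called in each of these fits. Lag3 and Btla lost the call without any 1 of the 3, and Tigit without replicate 3 or 4.

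Cd3e was 0.461, 0.682 and 1.65 CPM in cured mice against 2.26, 1.99, 2.23, 2.23 and 2.32 CPM in untreated mice (log2 fold change -1.22, SE 0.39, edgeR, adjusted p = 0.0307). This call depended on single libraries. The Cd3e log2 fold change was -0.89 without cured replicate 2 (edgeR, adjusted p = 0.106) and -1.04 without cured replicate 3 (edgeR, adjusted p = 0.120). The call was also lost without untreated replicate 1, 3, 4 or 5 (edgeR, adjusted p = 0.0513 to 0.058). It held without untreated replicate 2 (edgeR, adjusted p = 0.0237) and without cured replicate 4, at -1.91 (edgeR, adjusted p = 0.00643). Per Cd3e read, Pdcd1 was 0.667, 0.214 and 0.176 in cured against 1.63, 1.20, 1.76, 1.93 and 1.33 in untreated mice, without overlap. The log2 difference in the ratio was -2.13 with the smallest exact p that 3 mice against 5 allow, 0.0357, and 5.13% of all genes separated in this direction. The cured ratios rest on 6, 3 and 6 reads of Pdcd1 and 9, 14 and 34 of Cd3e. Havcr2 had a log2 difference of -1.36 (exact permutation p = 0.0714), Tigit of -0.62 (p = 0.393) and Ctla4 of -0.46 (p = 0.429), all by exact permutation with overlapping groups. Lag3, at 5.44, 4.86 and 1.68 reads per Cd3e read, and Btla had ratios with overlapping groups and differences of 0.41 and 0.35.

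With the Cd3e offset in edgeR, Pdcd1 (-2.41, adjusted p = 0.00141) and Havcr2 (-1.55, adjusted p = 0.0245) were called, against 7.64% of genes called lower. Pdcd1 kept the smallest exact p, 0.0357, under each of the 6 other references tested, by differences of -2.03 (Cd3d) to -3.54 (Ptprc). Per read of Ptprc, 5 receptors passed as lower, all except Btla (exact permutation p = 0.0714), as did 22.9% of all genes. Per read of Adgre1, a macrophage gene, the differences were -3.48 for Pdcd1, -2.71 for Havcr2, -1.96 for Tigit, -1.80 for Ctla4, -1.0 for Btla and -0.93 for Lag3.

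**Figure D4:**
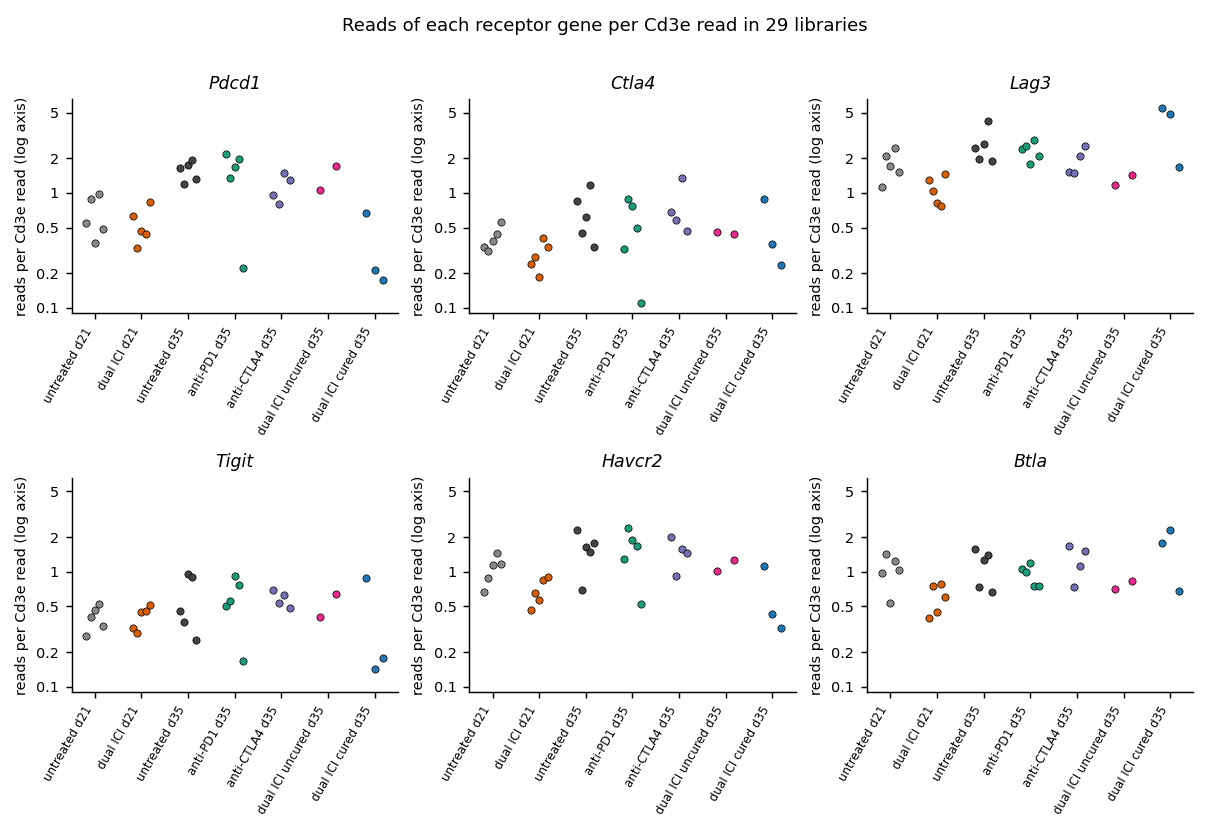
Reads of each receptor gene per Cd3e read (vertical axis, logarithmic) in 29 libraries (points) by group (horizontal axis). Untreated mice at day 35 lay at 1.20 to 1.93 for Pdcd1, above untreated mice at day 21 at 0.368 to 0.977 and above the cured mice at 0.176 to 0.667.

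Taken as the single group of the labels, the 5 dual ICI mice of day 35 held both extremes of the receptors, and no receptor passed against untreated mice. Log2 fold changes lay between -0.42 (Havcr2) and -0.05 (Tigit) with adjusted p-values of 0.667 to 0.977 in edgeR. The 5 mice spanned 0.146 to 8.59 CPM for Pdcd1, with the 2 uncured mice above and the 3 cured mice below all 5 untreated mice. Without untreated replicate 2 they were -0.62 (Havcr2) to -0.19 (Tigit). No gene passed in edgeR (0.0% called), DESeq2 called 56, and 6.87% of 15588 genes had an unadjusted p under 0.05, with none of the receptors among them. Per Cd3e read, Pdcd1 was lower in this pooled group (log2 difference -1.35, exact permutation p = 0.0397), and Pdcd1 no longer passed with Cd3d or Cd3g as the reference.

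Neither antibody alone was followed by a receptor change that passed in edgeR. Pdcd1 was 4.24, 3.02, 5.10, 3.63 and 0.413 CPM in anti-PD1 mice and Ctla4 was 1.78, 1.95, 3.69 and 1.03 CPM in anti-CTLA4 mice, both overlapping the untreated mice, which all these comparisons share. The log2 fold change of Pdcd1 under anti-PD1 was -0.08 (SE 0.47) and became 0.19 without replicate 5, whose 0.413 CPM was the lowest value of Pdcd1 outside the cured mice. That library also held the lowest value of its group for 5 receptors, at 0.206 CPM for Ctla4, 3.92 for Lag3, 0.310 for Tigit and 0.981 for Havcr2, while its Cd3e, 1.86 CPM, lay within the range of the other 4 (1.83 to 3.03 CPM). Under anti-CTLA4 the log2 fold change of Ctla4 was 0.47 (SE 0.44), and with single libraries left out it ranged from 0.0541 (without anti-CTLA4 replicate 3) to 0.74 (without untreated replicate 4).

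Across the 6 receptors, log2 fold changes were -0.31 to 0.08 under anti-PD1 (standard errors of 0.24 to 0.56), -0.15 to 0.31 without anti-PD1 replicate 5, and -0.22 to 0.47 under anti-CTLA4 (standard errors of 0.24 to 0.44). Without untreated replicate 2 they were -0.44 to -0.0687 under anti-PD1 and -0.32 to 0.34 under anti-CTLA4. In edgeR no gene passed adjustment in either comparison (0.0% called), and DESeq2 also called 0 genes. At an unadjusted p under 0.05, edgeR counted 205 genes (1.31%) under anti-PD1 and 128 (0.811%) under anti-CTLA4, with no receptor among them. Anti-PD1 against anti-CTLA4 gave log2 differences of -0.78 (Ctla4, SE 0.61) to 0.13 (Pdcd1, SE 0.53), where edgeR and DESeq2 called 0 genes and 149 had an unadjusted p under 0.05 in edgeR (0.947%). Without anti-PD1 replicate 5 these differences were -0.52 (Ctla4) to 0.41 (Pdcd1). Per Cd3e read, the differences from untreated mice were -0.52 to -0.00 under anti-PD1 and -0.48 to 0.17 under anti-CTLA4, none with an exact p under 0.05, of which Pdcd1 under anti-CTLA4 had the smallest (-0.48, exact permutation p = 0.0794).

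Between day 21 and day 35, Pdcd1 was the only receptor of untreated mice that passed in edgeR, against 6.24% of 15604 genes called higher. It was 1.93, 1.43, 1.27, 2.67 and 1.23 CPM at day 21 and 3.69, 2.40, 3.93, 4.30 and 3.08 CPM at day 35, with overlap through replicate 4 of day 21 and replicate 2 of day 35. The log2 fold change was 1.03 (SE 0.26, edgeR, adjusted p = 0.0312), and the call was lost without any 1 of 8 of the 10 libraries (adjusted p = 0.0579 to 0.0812) and held without day 35 replicate 2 or day 21 replicate 4. Ctla4 (0.42), Lag3 (0.29), Havcr2 (0.27), Tigit (0.22) and Btla (-0.13) had log2 fold changes with adjusted p-values of 0.471 to 0.798 in edgeR. Without day 35 replicate 2, Pdcd1 was at 1.12 and the others at 0.005 (Btla) to 0.55 (Ctla4).

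Per Cd3e read, Pdcd1 was higher in every untreated mouse at day 35, at 1.63, 1.20, 1.76, 1.93 and 1.33, than in any at day 21, at 0.545, 0.881, 0.368, 0.977 and 0.485, and 5.23% of genes separated in this way. The log2 difference was 1.31 with the smallest exact p that 5 against 5 allow, 0.00794. The subunits of CD3 did not move together between the days, since Cd3e differed by -0.33, Cd3d by 0.61 and Cd3g by 0.78 on the log2 scale. The Pdcd1 difference was 0.38 relative to Cd3d (exact permutation p = 0.405), 0.30 relative to Cd3g (exact permutation p = 0.341), 0.84 relative to the mean of the 10 T cell genes (exact permutation p = 0.0159), 0.78 relative to Cd8a (exact permutation p = 0.0159) and 1.91 relative to Ptprc (exact permutation p = 0.00794). Ptprc itself was lower at day 35 by 0.82 (edgeR, adjusted p = 0.0312). The other 5 receptors differed by 0.10 to 0.62 per Cd3e read, none with an exact p under 0.05.

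Uncured mice at day 35 were also set against dual ICI mice at day 21. Pdcd1 was 5.78 and 8.59 CPM in the former and 3.87, 1.68, 4.33, 4.79 and 4.58 CPM in the latter, without overlap, as for 19.1% of 16135 genes. Its log2 fold change was 0.88 (SE 0.37, edgeR, adjusted p = 0.161), and those of the other 5 were -0.23 (Tigit) to 0.18 (Havcr2) with overlapping groups, so that none of the 6 was called, against 5.31% of genes. Per Cd3e read, Pdcd1 (1.06 and 1.73 against 0.627, 0.331, 0.465, 0.435 and 0.832), Ctla4 and Havcr2 were higher in both uncured mice than in all day 21 mice. Their log2 differences were 1.39, 0.68 and 0.75, each at the smallest exact p that 2 against 5 allow, 0.0952, and 31.9% of genes separated this way. The effect of dual ICI on the receptors at day 21 and in the 2 uncured mice at day 35, each against the untreated mice of its day, did not differ detectably. This interaction was -0.44 (Tigit and Lag3) to -0.05 (Btla) with standard errors of 0.41 to 0.66, and edgeR called 0 genes (0.0%, with 1050 genes or 6.35% at an unadjusted p under 0.05), with the lowest adjusted p among the receptors at 0.757. Without untreated day 35 replicate 2 it was -0.59 (Tigit) to -0.20 (Btla).

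The order of the 7 groups by mean CPM was alike only at its ends. Cured mice were last for all 6 receptors and did not overlap the next group up, untreated mice at day 21, for 5 of them, all except Btla, where anti-PD1 mice came next and overlapped. For Ctla4 and Tigit, cured mice were still not apart from anti-PD1 mice. Anti-PD1 replicate 5 lay below every cured library for Ctla4 and inside the cured range for Tigit. Uncured mice or dual ICI mice at day 21 were first for each receptor. For Pdcd1 the means ran from 7.18 ± 1.99 CPM (SD, n = 2) in uncured mice through 3.85 ± 1.26 (SD, n = 5) in dual ICI mice at day 21, 3.48 ± 0.748 (SD, n = 5) in untreated mice at day 35, 3.28 ± 1.78 (SD, n = 5) under anti-PD1 and 3.03 ± 0.693 (SD, n = 4) under anti-CTLA4 to 1.71 ± 0.607 (SD, n = 5) in untreated mice at day 21 and 0.248 ± 0.0886 (SD, n = 3) in cured mice. Only the first and the last steps of this order were free of overlap. The Lag3 means ran from 7.47 ± 1.28 CPM (SD, n = 5) in dual ICI mice at day 21 to 2.86 ± 0.411 (SD, n = 3) in cured mice.

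A list of 27 other genes of the pathway (further inhibitory receptors, signalling partners, ligands and costimulatory receptors) was followed beside the receptors. At day 21, 26 were tested, 23 had higher means in dual ICI mice, 0 were called in edgeR and 13 were higher at an unadjusted p under 0.05, against 6.02% of all genes, with a median log2 fold change of 0.47. The largest were Cd96, an inhibitory receptor that shares the ligand Pvr with Tigit (1.6, SE 0.33, edgeR, adjusted p = 0.0585), and Klrc1, the inhibitory receptor NKG2A (1.47, SE 0.57, edgeR, adjusted p = 0.365). In uncured mice all 27 had higher means and 0 were called, 6 at an unadjusted p under 0.05, against 2.74% of all genes higher, with a median of 0.54. The largest there were Cd226, the activating receptor that competes with Tigit for its ligands (1.16, SE 0.42), and Cd160, a further receptor for Tnfrsf14 (1.03, SE 0.56), both with an adjusted p of 0.735 in edgeR.

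In cured mice, 14 of the 27 were called lower and 3 higher in edgeR, against 26.7% and 18.0% of all genes. Among the ligands, Pdcd1lg2, a ligand of PD1, fell by 3.14, Fgl1, a ligand of Lag3, by 3.29, Ceacam1 and Lgals9, ligands of TIM3, by 2.99 and 1.55, Nectin2 and Pvr, ligands of Tigit, by 2.83 and 0.62, Lgals3, which also binds Lag3, by 1.87 and Tnfrsf14, the ligand of Btla, by 1.15. Cd274, which encodes PD-L1, was the exception among the PD1 ligands, with a log2 fold change of 0.29 that was not called. Cd80 and Cd86, the ligands of Ctla4, were not among the genes called either. Of the T cell genes, Tox, a transcription factor of exhausted T cells, fell by 2.66 and the costimulatory receptor Icos by 1.23. The inhibitory receptors Lair1, Pilra and Klrg1 fell by 1.77, 1.46 and 1.46 and the phosphatase Ptpn6 by 0.98. Against these, the costimulatory Cd28 rose by 1.72 and Cd226 by 1.85, and the phosphatase Ptpn11 rose by 0.52.

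Cd28 and Cd226 also moved with time in untreated mice, being lower at day 35 than at day 21 by 1.54 (edgeR, adjusted p = 0.0202) and 1.66 (edgeR, adjusted p = 0.0122), the only 2 of 26 tested that were called. Over all 15604 genes tested in that comparison, 973 (6.24%) were called higher, which is the opposite direction to these 2. The share called lower is not given here, and the number called in either direction is given with the processing alternatives below. Whether 2 of 26 differs from the share over all genes was not tested. Cd226 was lower in uncured mice at day 35 than in dual ICI mice at day 21 by 1.53, while Fgl1 (2.88) and Nectin2 (1.02) were higher there. In that comparison edgeR called 5.31% of all genes, and the number called ranged over 0 to 4006 with single libraries left out. Gastric epithelium genes summed to 3563 and 4384 CPM in the uncured libraries and to 958.5 to 2872 CPM in those of day 21. The part of tissue content in these 3 differences was not tested. Opposite to Pdcd1, which was higher at day 35, the activating receptors Cd28 and Cd226 stood lower in the untreated mice of day 35.

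**Figure D5:**
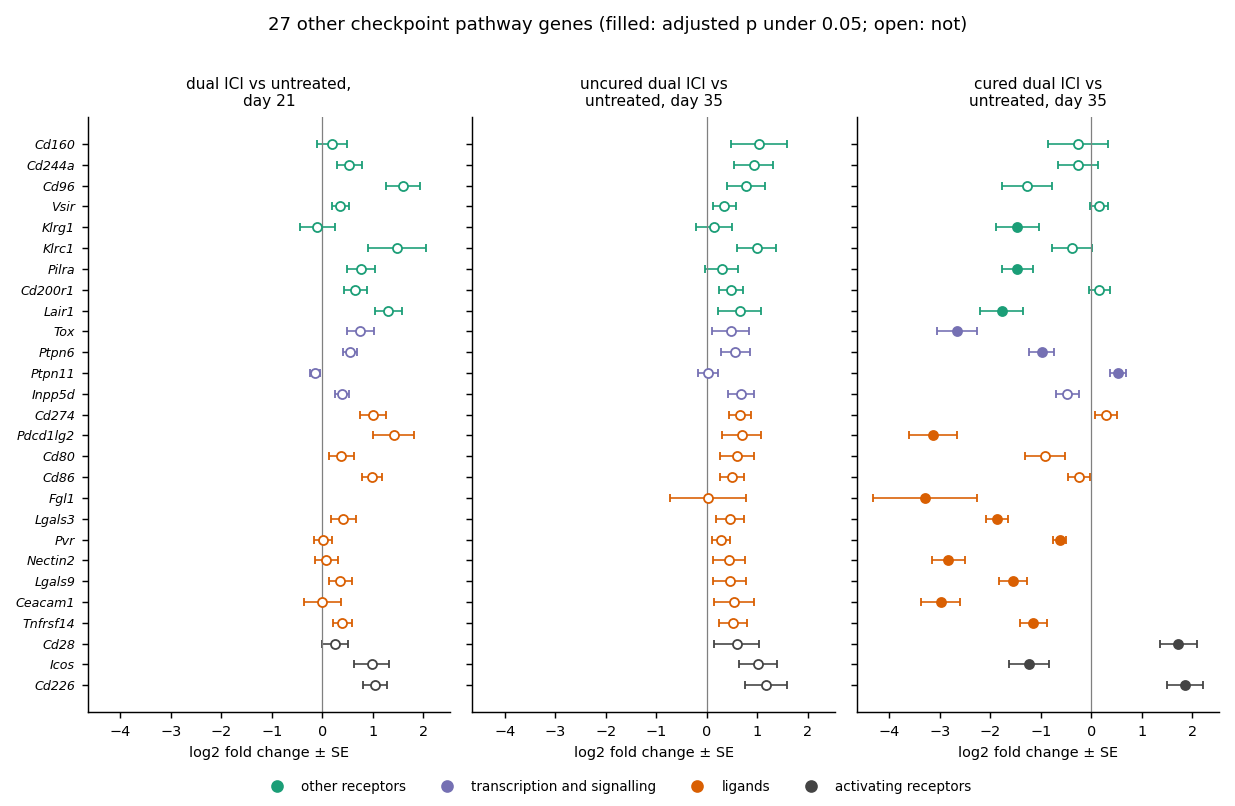
Log2 fold change from edgeR (horizontal axis, shared by all panels) of 27 other genes of the checkpoint pathway (vertical axis) in 3 comparisons (panels), with bars for the standard error; filled points have an adjusted p under 0.05. At day 21 and in uncured mice most points lay right of 0 with none filled, and in cured mice 14 filled points lay left of 0 and 3 (Cd226, Cd28 and Ptpn11) right of it.

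The genes whose pattern over the 29 libraries was most like each receptor were found among 16700 genes by the root mean square (RMS) difference of centred log2 CPM, as a description of libraries that share tissue and groups. For Pdcd1 they were Tnf (0.41), Kifc1 (0.45) and Tnfrsf9 (0.46), where the RMS of Pdcd1 itself about its mean was 1.28. For Ctla4 they were Itgae (0.41), Wdhd1 (0.46) and Clec5a (0.47), and for Tigit Il2rb (0.45, RMS of Tigit itself 1.09), Rgs1 (0.46) and Itgae (0.47). For Havcr2 they were Gsg2 (0.29, RMS of Havcr2 itself 1.10), Cdca7l (0.29) and Casp1 (0.32). For Lag3 they were Psme1, Nubp1 and H2-D1 (0.27 to 0.28, RMS of Lag3 itself 0.47), and for Btla Mthfd2 (0.30), Actg1 and Cdc7 (0.37 each, RMS of Btla itself 0.68). Ctla4 and Tigit shared Itgae, an integrin of tissue-resident T cells.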

How the data were processed

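Bulk RNA-seq was performed on tissue of 29 mice with a NEBNext Ultra II kit and 150 bp paired-end reads. The authors deposited raw read counts per gene, aligned to mm10. GEO's labels name STAR 2.7.0f and featureCounts 1.6.4, whereas the study's methods name other versions and HTSeq for counting. The strand setting and the annotation are not given in the sources used here. Library totals were 25989217 to 31219650 counts. No pair of libraries within a group differed by less than sampling noise.

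Counts were tested with edgeR 4.0.16 (R 4.3.3) by the quasi-likelihood test with TMM scaling, filterByExpr (minimum count 10) and Benjamini-Hochberg adjustment over all genes tested, using the libraries of the groups compared. A gene was called at an adjusted p under 0.05. Ratios to Cd3e were differences of log2 CPM with a prior count of 2, tested by exact two-sided permutation over mice without adjustment over the 54 tests, and the same test over all genes gave the share past p = 0.05 under each reference. DESeq2 1.42.0, other scaling, filters, references and left-out libraries were alternatives. The pipeline was tested on simulated data.

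The 6 genes and the lists were chosen with earlier results of these data known. Other pathway genes were named where called, or as the 2 largest changes at day 21 and in uncured mice, and marker genes where called or first in their list. Promoters came from RefSeq (GRCm38.p6) and positions from GENCODE vM21.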

Additional observations from a re-analysis of the deposited data

Results flagged for a closer look

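Each receptor and Cd3e was examined for a library far from the rest of its group, relative to the group's whole range, in groups of at least 4 mice. Such a library was found in 6 of 65 groups tested, and chance alone flags about 1 in 20 groups. All 6 were found in CPM, and the 65 are more than the CPM of these genes supplies, so 6 of 65 is not the rate for CPM alone. In dual ICI mice at day 21, replicate 4 stood above the others for Ctla4 (4.41 CPM, the next being 1.85 CPM) and for Btla (8.61 CPM, the next being 4.17 CPM), and it also held the highest Cd3e of that group. Replicate 2 of the same group stood below the others for Lag3 (5.26 CPM, the next being 7.58 CPM). Untreated replicate 2 at day 21 was low for Ctla4 (0.503 CPM, the next being 1.19 CPM). Anti-CTLA4 replicate 4 was low for Tigit (1.06 CPM, the next being 1.70 CPM). Untreated replicate 2 at day 35, the library of its group with the most muscle RNA, was low for Cd3e (1.99 CPM, the next being 2.23 CPM) in a group that otherwise spanned a narrow range.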

How the results depend on the processing

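Of 871 values of single genes under an alternative, 702 kept their direction and their side of the threshold, 72 lost the threshold, 39 gained it and 58 changed sign. The cause of each change was not tested except where stated.

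DESeq2 in place of edgeR called 507 genes at day 21 (edgeR 89), 56 in all 5 dual ICI mice of day 35 (edgeR 0), 18 in uncured mice (edgeR 0), 3141 between untreated mice of the 2 days (edgeR 1687), 3173 between uncured mice and dual ICI mice of day 21 (edgeR 857) and 1 for the interaction (edgeR 0), and it called 2 receptors at day 21, Pdcd1 and Tigit. With all 29 libraries in the fit, 237 genes were called between uncured mice and dual ICI mice of day 21, and 0 receptors between untreated mice of the 2 days (Pdcd1, adjusted p = 0.0727 in edgeR). With at least 10 counts required in every library, 2 receptors were called in cured mice in place of 6, since the other receptors had fewer counts there and were not tested.

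Same-numbered mice deviated together in some pairs and apart in others (correlations of -0.685 to 0.697). For dual ICI mice at day 21, the replicate numbers also do not all match the numbers in the deposited column names. The replicate numbers were therefore not taken to pair the mice, and the replicate block is an alternative only. With a replicate block, edgeR called 209 genes and 1 receptor (Tigit, adjusted p = 0.0205) at day 21, 4016 genes in cured mice in place of 7067, and 3192 between uncured mice and dual ICI mice of day 21. In cured mice Lag3 (adjusted p = 0.0563) and Btla (adjusted p = 0.0992) lost the call under the replicate block in edgeR.

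With single libraries left out, genes called ranged over 6 to 119 at day 21, 4491 to 9388 in cured mice (lowest without cured replicate 3), 654 to 4915 between untreated mice of the 2 days, and 0 to 4006 between uncured mice and dual ICI mice of day 21 (0 without uncured replicate 1, 4006 without dual ICI replicate 4 of day 21). Receptors called ranged over 0 to 1 at day 21, 3 to 6 in cured mice and 0 to 1 between untreated mice of the 2 days. Receptors past the threshold per Cd3e read ranged over 0 to 2 at day 21, 0 to 2 in all 5 dual ICI mice, 0 to 0 in cured mice, where 0.0571 or 0.0952 was then the smallest p possible, and 1 to 2 between untreated mice of the 2 days. Signs changed for log2 fold changes of Pdcd1 under anti-PD1 (-0.29 to 0.19), and, between untreated mice of the 2 days, of Tigit (-0.0292 to 0.41) and Btla (-0.28 to 0.005). Without anti-PD1 replicate 5 or untreated day 35 replicate 2, signs also changed for log2 fold changes of Havcr2 (-0.21 to 0.22) and Tigit (-0.0687 to 0.31) under anti-PD1, of Havcr2 under anti-CTLA4 (-0.0528 without untreated replicate 2), and of Lag3 (0.0685), Tigit (0.025) and Havcr2 (0.082) for anti-PD1 against anti-CTLA4 without anti-PD1 replicate 5. They also changed for ratios to Cd3e of Tigit at day 21 (-0.13 to 0.10), of Pdcd1 (-0.53 to 0.17) and Tigit (-0.39 to 0.27) in uncured mice, and of Btla between untreated mice of the 2 days (-0.11 to 0.26).

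The reference gene shifts all 6 receptors alike within a comparison. At day 21, 2 receptors passed as lower per Cd3e read, 1 per Cd3d, 4 per Cd3g, 6 per Cd8a, 4 against the CD3 mean and 1 against the mean of the T cell genes. Per Ptprc read 1 passed, as higher, and 0 passed with Cd3e as the edgeR offset. In all 5 dual ICI mice, 1 passed per Cd3e read, 0 per Cd3d, 0 per Cd3g, 3 per Cd8a, 2 per Ptprc, 0 with the offset, 0 against the CD3 mean. In uncured mice 0 passed, and 1 with the offset. In cured mice 1 passed per Cd3e read, 2 per Cd3g, 3 per Cd8a, 5 per Ptprc, 2 with the offset, 2 against the CD3 mean and 4 against the mean of the T cell genes. Under anti-PD1, 1 passed as higher per Cd3g in place of 0, and 1 passed as lower per Cd8a for anti-PD1 against anti-CTLA4. Between untreated mice of the 2 days 1 passed as higher per Cd3e read and 4 per Ptprc, whereas 2 passed per Cd3g in the opposite direction, as lower. There, 0 passed per Cd3d and 0 against the CD3 mean. Over all genes tested, the share past the same threshold as lower was 91.1% to 99.2% at day 21 under the T cell references and 0.6% as higher per Ptprc, and in cured mice 5.13% (Cd3e) to 22.9% (Ptprc) as lower. In all 5 dual ICI mice it was 6.55% per Cd3e, 13.5% per Cd8a and 29.5% per Ptprc as lower. It was 25.1% as higher per Cd3g under anti-PD1 and 0.724% as lower per Cd8a for anti-PD1 against anti-CTLA4. Between untreated mice of the 2 days it was 20.3% per Cd3e and 66.2% per Ptprc as higher and 43.6% per Cd3g as lower. The mean of the T cell genes was added as a reference after seeing the data.

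Signs of the log2 differences turned as follows. At day 21, per Ptprc read Pdcd1 was 0.51, Ctla4 0.24, Lag3 0.0669, Tigit 0.77 and Havcr2 0.16, and Tigit was 0.0621 with the offset, 0.13 against the T cell genes and 0.019 with a prior count of 0.5. In uncured mice Tigit was 0.0568 per Cd3d, 0.22 per Cd3g, 0.21 per Ptprc, 0.0717 against the CD3 mean and 0.18 against the T cell genes, and Pdcd1 0.0906 per Cd3g, 0.0859 per Ptprc and 0.0555 against the T cell genes. In cured mice Lag3 was -0.22 per Cd8a, -0.99 per Ptprc and -0.20 against the T cell genes, and Btla -0.28, -1.05 and -0.26. Between untreated mice of the 2 days, Ctla4 was -0.30 per Cd3d, -0.38 per Cd3g and -0.0193 against the CD3 mean, and Lag3 -0.38, -0.46 and -0.10. Tigit was -0.54 per Cd3d, -0.62 per Cd3g, -0.26 against the CD3 mean, -0.14 per Cd8a and -0.085 against the T cell genes. Havcr2 was -0.42 per Cd3d, -0.50 per Cd3g, -0.14 against the CD3 mean and -0.0211 per Cd8a, and Btla -0.83, -0.90, -0.54 and -0.43, and -0.37 against the T cell genes.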
